A study of Mus musculus with 12 samples.

Results

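The response to IL-33 of lung group 2 innate lymphoid cells (ILC2s) from mice labelled 6DKO was read from 6 of the 12 RNA-seq libraries of the series, 3 with IL-33 and 3 with PBS. Values were FPKM (fragments scaled for transcript length and for mapped fragments). A gene was kept where its mean over these 6 libraries was at least 0.5 FPKM, which 11331 of the 24346 genes met. *Tie1*, with a mean of 0.50017, was the gene just inside this limit, and *Tmem177*, with 0.49997, was the gene just outside it.

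The series held 4 groups of 3 libraries each, made from lung ILC2s of mice, C57BL/6J by the methods of the study. Mice were labelled WT or 6DKO (*Sema6d*-/-) and received either PBS or recombinant mouse IL-33 (rmIL-33) through the nose for 3 days. The labels put the IL-33 dose at 50 ng, and the methods of the study state a different dose. The labels give no age, and the methods give 7 to 12 weeks for the mice of the study as a whole. No Cre line or cell-type promoter is named for the deletion, so cells other than ILC2s carried it too as far as the sources used here say. Libraries are called by their labels throughout, and PBS or IL-33 library without a genotype means a 6DKO library.

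IL-33 is an alarmin released by damaged epithelium and stroma, and it acts on ILC2s through ST2, the product of *Il1rl1*, and the adaptor MyD88. ILC2s depend on the transcription factors GATA3 and RORα, and in the lung their IL-5, IL-13, GM-CSF and amphiregulin act on eosinophils, mucus, macrophages and epithelial repair. Semaphorin 6D, first known from axon guidance, is a transmembrane ligand of class A plexins.

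*Sema6d* itself was listed at 29.0, 22.9 and 19.8 FPKM in the 3 PBS libraries and at 15.4, 13.6 and 13.8 in the 3 IL-33 libraries. All 6 libraries labelled 6DKO thus held fragments counted to the gene, and the 3 IL-33 libraries lay below the 3 PBS libraries (−0.69 ± 0.32, adjusted p 0.314). WT libraries were listed at 27.5, 46.1 and 37.5 under PBS and 19.7, 35.5 and 28.7 under IL-33, which overlapped the 6DKO values under PBS and lay above them under IL-33. A value per gene does not show which exons were covered, so these levels do not check the deletion.

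The genes that define ILC2s were present in every 6DKO library. *Il1rl1* was listed at 269, 196 and 168 FPKM under PBS and 190.3, 190.4 and 181 under IL-33, and the groups overlapped. *Gata3*, the master regulator of type 2 lymphocytes, was listed at 690.0, 382 and 466 and 391, 348 and 429. *Rora* (230.5, 141 and 225, then 204, 201 and 230.3) and *Il7r*, the receptor chain for IL-7 and TSLP (342, 291 and 314, then 315, 384 and 354), overlapped as well, and none of these 4 genes passed the test described below.

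The PBS libraries were sparser than the IL-33 libraries. Genes above 1 FPKM numbered 7696, 9287 and 9084 in the PBS libraries and 10081, 10075 and 10042 in the IL-33 libraries. Of the genes tested, 24.7, 12.3 and 13.5% were listed at 0 in the PBS libraries, against 4.13, 4.44 and 5.59% in the IL-33 libraries. Relative depth, read from the steps between low values, was 0.752, 0.766 and 0.891 under PBS and 1.0, 0.866 and 0.947 under IL-33, with the deepest of these 6 libraries set to 1.0. The correlation of log2(FPKM + 1) between libraries of a group was 0.755 to 0.798 under PBS and 0.933 to 0.936 under IL-33, and the median standard deviation of a gene was 0.737 and 0.281. A gene listed at 0 may be one whose few fragments were missed, and the part of sparseness in the calls was not tested.

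Markers of other cell types marked out single libraries, although the methods of the study name NK1.1, F4/80, CD11c and TER-119 among the surface markers that the ILC2 gate excluded. The 6 NK cell markers summed to 0, 164 and 0 FPKM in the PBS libraries and 6.21, 0 and 0 in the IL-33 libraries, led by *Klre1* at 0, 65.8 and 0 under PBS. The 12 epithelial markers summed to 54.0, 271 and 44.3 and 27.1, 8.3 and 114, led by *Ager* at 0, 199 and 0 under PBS, with *Scgb3a2* at 0 in all 6 libraries. The 9 fibroblast markers, led by *Sparc*, summed to 0.0915, 39.6 and 3.4 and 2.4, 4.01 and 1.16. PBS replicate 2 was the highest of the 3 PBS libraries in each of these lists. The 18 macrophage markers, led by *Chil3* (5.13, 51.1 and 0, then 0, 394 and 83.1), summed to 6.07, 231 and 17.4 and 11.8, 447 and 163, highest in PBS replicate 2 and in IL-33 replicates 2 and 3.

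T cell markers, 9 in number, summed to 285, 276 and 339 under PBS and 204, 282 and 247 under IL-33, nearly all of it *Cd3g*, with *Cd4* and *Cd8b1* at 0 in all 6 libraries. Mast cell and basophil markers, 8 in number, summed to 42.9, 89.3 and 50.2 and 17.9, 22.8 and 41.9, nearly all *Cpa3*, and *Mcpt8*, *Fcer1a*, *Mcpt4* and *Prss34* were at 0. The 6 neutrophil markers in the files, led by *Cxcr2*, summed to 9.1, 6.73 and 6.5 and 10.1, 13.5 and 8.91. The 6 eosinophil markers summed to at most 1.64 FPKM, and *Siglecf*, *Prg2* and *Epx* were at 0 in all 6 libraries, as were the neutrophil genes *S100a8* and *S100a9*. The 6 dendritic cell markers summed to 6.06, 20.5 and 10.5 and 17.1, 16.4 and 16.2, led by *Zbtb46*, and the 6 B cell markers to 0, 0 and 8.9 and 3.49, 18.4 and 5.91, led by *Cd79b*. Erythroid markers summed to 12.8, 32.0 and 40.0 and 5.67, 8.95 and 3.8. *Hba-a1*, the most abundant of them, was listed at 12.4, 31.8 and 2.71 and 0.167, 4.64 and 1.65. Other erythroid markers thus made up most of the sum in PBS replicate 3 and in IL-33 replicates 1 and 3. The 8 endothelial markers, led by *Pecam1*, summed to 2.86, 23.1 and 17.7 and 20.9, 11.7 and 12.8. Of all these markers only *Cd68*, a lysosomal glycoprotein of macrophages, and the epithelial adhesion molecule *Epcam* passed the test below, the first higher and the second lower.

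Genes rose and fell under IL-33 in 6DKO ILC2s. By limma's moderated test across all 11331 genes, 208 genes (1.84% of those tested) rose and 127 (1.12%) fell, 335 in all (2.96%). A gene is said to have risen or fallen only where its Benjamini-Hochberg adjusted p was under 0.05, and its fold change is given as log2 of (FPKM + 1) with ± its standard error, a scale that understates the change of low genes. These p-values measure the spread within the 4 groups of all 12 libraries, and a fit of the 6 6DKO libraries alone called 81 rises and 64 falls and kept 46 of the 89 named genes that were called. Standard errors draw on the same spread, so a gene with little spread in 6DKO can carry a wide one from WT libraries. For 3 libraries against 3, an exact permutation test of a single gene cannot go below p = 0.10. In bulk RNA, fewer cells of a type and less RNA per cell cannot be told apart.

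The filter took the mean of both groups, so a gene near 0 under PBS was tested only if IL-33 libraries held it. Of the genes that rose 115 had a PBS mean under 0.5 FPKM, and of those that fell 6 had an IL-33 mean under it, as did 826 and 585 of all genes tested. The median level of the genes that rose was 0.157 FPKM under PBS and 12.4 under IL-33, and that of the genes that fell was 129.9 and 42.2. Of the 208 genes that rose, 134 were listed at 0 in at least 1 PBS library and 82 in all 3, while 3 of the 127 that fell were listed at 0 in all 3 IL-33 libraries. Among the 7689 genes above 0 in all 6 libraries, 74 rose and 120 fell, so the larger number of rises came from genes with zeros. The 2 groups did not overlap for any of the 335 genes, nor for 22.6% of all genes tested (1557 higher and 999 lower).

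The share of rises moved with the scaling, and the number of calls moved with single libraries. After quantile normalization 145 genes were higher and 142 lower, a share of 50.5% higher in place of 62.1%. Leaving out any 1 library gave shares of 56.5 to 66%. Rises numbered 359 without PBS replicate 2, with 188 falls, and 94, 80 and 98 without IL-33 replicate 1, 2 or 3, which left 59, 61 and 65 falls. Over all genes tested, the log2 fold change had a median of 0.13, −0.01 after quantile normalization and 0.02 over genes above 0 in all 6 libraries, and the medians of gene lists below are to be read against these. Counts of list members that rose or fell are likewise to be read beside the 1.84% and 1.12% of all genes tested. No fold change within a genotype is given against a group listed at 0 in all 3 libraries, except the range of *Il9* on leaving out 1 library. The size of that range depends on the pseudocount. Where a call below ended, the library left out is named, and another setting is named for a call that ended only there.

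**Figure D1:**
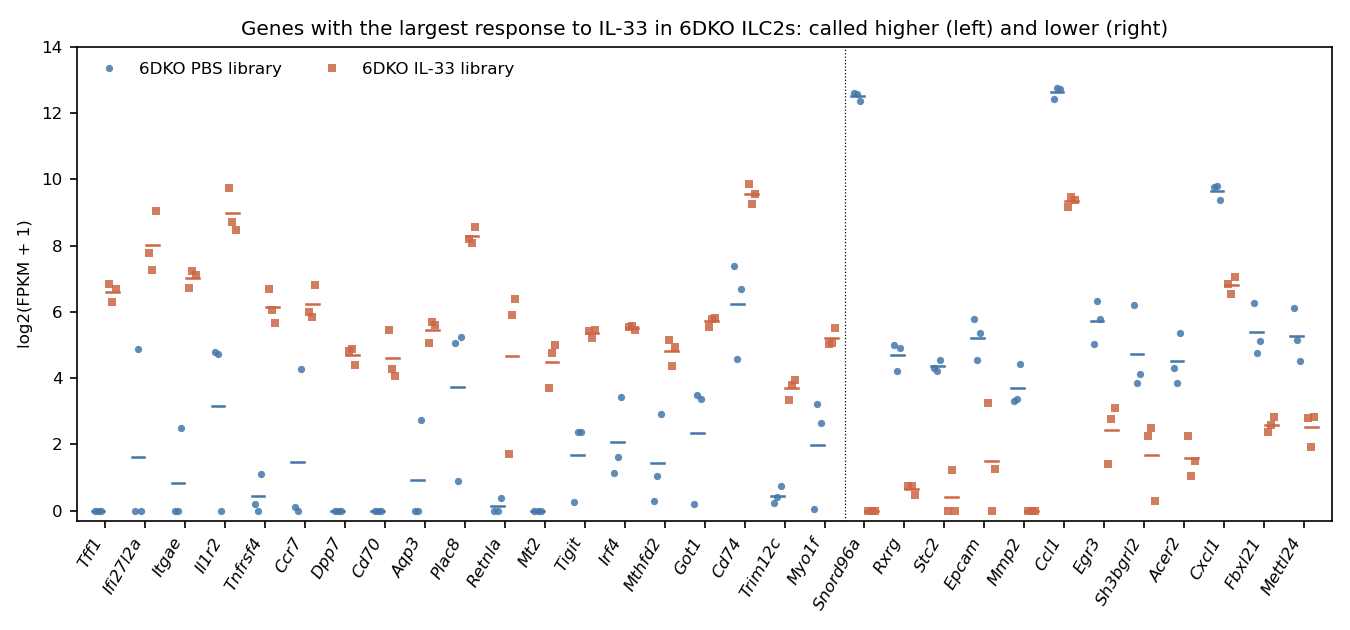
Level of the genes with the largest rise (left of the dotted line) and fall (right) in 6DKO ILC2s, as log2(FPKM + 1) in each PBS (circle) and IL-33 (square) library, with a bar at each group's mean. The groups do not overlap for any of these genes, and many of the genes that rose sit at 0 in 1 or more PBS libraries.

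Among secreted growth and repair factors, 3 of 10 tested genes rose and none fell. *Tff1*, a mucosal trefoil peptide (chr17:31161395-31165277, − strand of mm10), was listed at 0 in all 3 PBS libraries and at 113, 77.7 and 102 FPKM in the IL-33 libraries. This gap had the lowest adjusted p of the response, 5.65e-06, shared with *Ccl1*. *Ecm1*, an extracellular matrix glycoprotein that inhibits TGF-β activation, was listed at 27.9, 35.8 and 15.1 under PBS and 120.5, 113 and 96.2 under IL-33. The lowest IL-33 library was more than 2 times the highest PBS library (2.1 ± 0.36, adjusted p 0.0092). A microRNA gene, *Mir7014*, overlaps *Ecm1* on the same strand, so its fragments could be counted to either.

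*Retnla*, a secreted resistin-like protein of type 2 inflammation, was listed at 0, 0 and 0.314 FPKM under PBS and 2.24, 59.6 and 83.0 under IL-33. It rose (4.54 ± 1.09, adjusted p 0.0475), but IL-33 replicate 1 was far below replicates 2 and 3, as it was for the summed macrophage markers, and the part of macrophages in this rise was not tested. *Areg*, which encodes the epithelial growth factor amphiregulin, stayed among the most abundant transcripts at 2188, 1416 and 2075 and then 1082, 1063 and 1478. PBS replicates 1 and 3 stood above all IL-33 libraries and PBS replicate 2 between them, and the gene did not pass the test (−0.64 ± 0.17, adjusted p 0.0689). *Hbegf*, another EGF receptor ligand, was listed at 12.4, 11.4 and 7.06 and 1.61, 2.45 and 1.81 with no overlap (−1.91 ± 0.68, adjusted p 0.19), and *Tff2* was below the 0.5 FPKM limit. The list's median was 0.51, and −0.27 over the 4 members above 0 in all 6 libraries. The *Retnla* call ended, with an adjusted p of 0.0559 to 0.186, without any WT PBS or 6DKO PBS library, without WT IL-33 replicate 1 or 2, and without 6DKO IL-33 replicate 2 or 3.

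Several cytokines of ILC2s fell from a high PBS level. *Il5*, the eosinophil growth factor, was listed at 999.7, 627 and 1129 FPKM under PBS and 488, 351 and 412 under IL-33. It fell (−1.11 ± 0.26, adjusted p 0.044), with all IL-33 libraries below all PBS libraries. *Csf2*, which encodes GM-CSF, fell from 3044, 2514 and 2675 to 1248, 1196 and 1051 (−1.23 ± 0.16, adjusted p 0.00153). *Il2* fell from 228, 338 and 285 to 49.0, 47.7 and 56.2 (−2.44 ± 0.27, adjusted p 0.000773), and *Tnf* from 183, 149 and 103 to 49.1, 42.1 and 53.4 (−1.53 ± 0.29, adjusted p 0.0165). Under PBS these 4 genes were already listed at 103 FPKM or more in each library.

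Other effector cytokines were low or uneven under PBS. *Il13*, which drives mucus production, was listed at 0.436, 8.83 and 26.0 FPKM under PBS and 29.1, 19.1 and 26.4 under IL-33. PBS replicate 1 was near 0 and PBS replicate 3 reached the IL-33 level, so the groups overlapped (1.81 ± 0.89, adjusted p 0.355). *Il4* was listed at 17.6, 6.11 and 32.4 and 49.6, 43.2 and 64.4, without overlap but short of the test (1.68 ± 0.69, adjusted p 0.256). *Il6* was listed at 18.7, 0 and 40.1 and 124, 89.1 and 90.0, also without overlap (3.44 ± 1.25, adjusted p 0.199). *Il9* was at 0 in 5 of the 6 libraries.

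*Penk*, the precursor of opioid enkephalins, was listed at 0 in the 3 PBS libraries and at 5.53, 3.78 and 11.2 in the IL-33 libraries, and it rose (adjusted p 0.0156). *Il10*, the anti-inflammatory cytokine, was listed at 0, 0.259 and 0 under PBS and 0.796, 9.2 and 2.53 under IL-33, highest in IL-33 replicate 2, and did not pass the test (1.89 ± 0.65, adjusted p 0.168). *Lta*, which encodes lymphotoxin α, was listed at 29.0, 45.0 and 42.6 and 50.7, 37.9 and 41.8, with overlap. In the whole cytokine list 1 of 19 tested genes rose and 4 fell, with a median of −0.07 (−0.01 after quantile normalization) and of −0.66 over the 12 members above 0 in all 6 libraries. Calls ended for *Il5* (adjusted p 0.0635 to 0.175 without any 6DKO IL-33 library or 6DKO PBS replicate 1 or 3 or WT IL-33 replicate 2 or 3), *Tnf* (adjusted p 0.0509 to 0.0735 without any 6DKO IL-33 library) and *Penk* (adjusted p 0.0531 to 0.0629 without 6DKO IL-33 replicate 1 or 3).

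A few receptors for cytokines rose or fell, and most were not called. *Il17rb*, a subunit of the IL-25 receptor (chr14:29996135-30008896, − strand of mm10), was listed at 118, 94.8 and 93.4 FPKM under PBS and 265, 239.7 and 261 under IL-33. It rose (1.32 ± 0.20, adjusted p 0.00445), although *Actr8* overlaps it on the other strand and the 2 could share reads. *Il1r2*, the IL-1 decoy receptor, was listed at 26.7, 25.3 and 0 and 858, 420.1 and 353. PBS replicate 3 was at 0 and the other 2 PBS libraries near 26 FPKM, all far below the IL-33 libraries (5.81 ± 1.28, adjusted p 0.033).

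*Il2ra*, the high-affinity IL-2 receptor chain, fell from 103, 100.4 and 132 FPKM to 47.5, 29.4 and 35.3 (−1.57 ± 0.25, adjusted p 0.00646). *Il10ra*, the ligand-binding chain of the IL-10 receptor, fell from 251, 143 and 235 to 69.5, 71.0 and 67.9 (−1.54 ± 0.26, adjusted p 0.0092). Both were lower in every IL-33 library than in any PBS library. The co-receptor *Il1rap* (−0.48), the TSLP receptor *Crlf2* (−0.10) and *Il4ra* (−0.66) did not pass the test, and the first of these has *Gm20319* on its other strand. Among cytokine receptors 2 of 26 tested genes rose and 2 fell, beside 1.84% and 1.12% of all genes tested. The list's median was −0.13 (−0.17 over the 24 members above 0 in all 6 libraries). Without PBS replicate 3, any IL-33 library or any WT IL-33 library the *Il1r2* call ended, at an adjusted p of 0.0527 to 0.136.

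Genes of neuropeptide, adrenergic and lipid mediator signalling had 2 falls and no rise. *Nmur1*, the receptor for neuromedin U, was listed at 132, 93.5 and 159.6 FPKM under PBS and 29.3, 42.6 and 40.7 under IL-33. It fell without overlap (−1.73 ± 0.30, adjusted p 0.0104). *Ptgir*, the prostacyclin receptor, fell from 113, 76.6 and 98.6 to 40.5, 49.3 and 36.9 (−1.16 ± 0.28, adjusted p 0.0493). The VIP receptor *Vipr2* was listed at 13.1, 99.4 and 73.4 and 67.4, 85.1 and 92.6, with overlap. *Vipr1* stayed under the 0.5 FPKM limit. Of 18 such genes tested 2 fell and none rose, with a median of −0.40 (−0.46 over the 15 members above 0 in all 6 libraries). Calls ended for *Nmur1* (adjusted p 0.0533 without 6DKO IL-33 replicate 1) and *Ptgir* (adjusted p 0.0599 to 0.171 without any 6DKO IL-33 or WT IL-33 library or 6DKO PBS replicate 1 or 3 or WT PBS replicate 3).

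Of 20 inhibitory and costimulatory receptors tested, 4 rose, 2 fell and 14 were not called. *Tnfrsf4*, the costimulatory receptor OX40, was listed at 0.153, 0 and 1.16 FPKM under PBS and 102, 66.3 and 49.8 under IL-33 (5.70 ± 0.97, adjusted p 0.0092). *Tigit*, an inhibitory receptor for nectin-family ligands, rose from 0.192, 4.14 and 4.22 to 41.7, 36.3 and 43.2 (3.70 ± 0.83, adjusted p 0.0357). *Havcr2*, which encodes TIM-3, rose from 0, 0 and 0.0487 to 3.13, 5.97 and 6.75 (2.58 ± 0.44, adjusted p 0.0092). All 3 genes were near 0 in at least 1 PBS library and above 3 FPKM in each IL-33 library. *Cd28*, chosen after its values were seen, rose from 1.34, 0.381 and 0.0894 to 5.69, 8.2 and 11.3 (2.58 ± 0.62, adjusted p 0.0468).

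*Ctla4* showed the same order of libraries without passing the test. It was listed at 0, 32.8 and 8.37 FPKM under PBS and 176, 143 and 125 under IL-33 (4.44 ± 1.11, adjusted p 0.0566). *Pdcd1*, which encodes PD-1, was already high, at 312, 479.9 and 418 and 479.5, 466 and 403, with overlap (0.17 ± 0.29, adjusted p 0.818). *Lag3* was below the 0.5 FPKM limit. *Klrg1*, an inhibitory receptor of mature ILC2s, was listed at 498, 371 and 394 and 752, 643 and 601, without overlap (0.67 ± 0.27, adjusted p 0.26). *Icos*, listed at 518, 311 and 420.1 and 254, 258 and 277, was lower in every IL-33 library and missed the threshold (−0.63 ± 0.20, adjusted p 0.131).

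*Tnfrsf18*, which encodes the costimulatory receptor GITR, fell from 2276, 1538 and 1669 FPKM to 567, 529 and 424 (−1.84 ± 0.20, adjusted p 0.000674). *Cd200r1*, an inhibitory receptor, fell from 238, 169.8 and 189.8 to 94.8, 99.8 and 96.7 (−1.02 ± 0.19, adjusted p 0.0165). *Cd70*, the ligand of CD27, was listed at 0 in the 3 PBS libraries and at 42.4, 18.5 and 15.7 in the IL-33 libraries (adjusted p 0.00316). In the checkpoint list, which does not include *Cd70*, 4 of 20 tested genes rose and 2 fell. Its median of 0.63 became −0.04 over the 14 members above 0 in all 6 libraries. Calls ended for *Tnfrsf4* (adjusted p 0.0513 without 6DKO IL-33 replicate 1), *Tigit* (adjusted p 0.057 to 0.129 without any 6DKO IL-33 or WT IL-33 library or 6DKO PBS replicate 1), *Cd28* (adjusted p 0.0745 to 0.176 without any 6DKO IL-33 or WT IL-33 library or 6DKO PBS replicate 2 or 3) and *Cd200r1* (adjusted p 0.0562 to 0.0641 without any 6DKO IL-33 library), and for *Havcr2* with quantile normalization or array weights or the 6 libraries alone (adjusted p 0.05003 to 0.0769).

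A few transcription factors of lineage and fate rose. *Tcf7*, which encodes the ILC progenitor factor TCF-1, was listed at 21.6, 15.3 and 30.5 FPKM under PBS and 74.0, 70.3 and 85.0 under IL-33, without overlap (1.77 ± 0.32, adjusted p 0.0136). *Irf4*, a factor of activated lymphocytes, rose from 1.2, 2.07 and 9.79 to 45.5, 46.2 and 42.4 (3.45 ± 0.53, adjusted p 0.00535). *Nfil3*, needed early in ILC development, rose from 124, 80.7 and 69.4 to 174, 228 and 175 (1.1 ± 0.24, adjusted p 0.0308). The 3 IL-33 libraries lay within 5 FPKM of each other for *Irf4*, while the PBS libraries differed by several-fold.

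*Id2*, the inhibitor of E proteins that all ILCs need, was listed at 3155, 1726 and 2027 FPKM under PBS and 3001, 3238 and 3211 under IL-33, with overlap (0.50 ± 0.19, adjusted p 0.217). *Id3* was listed at 0, 10.7 and 0 and 15.4, 18.8 and 20.6, so PBS replicate 2 held all of the PBS signal and still lay below the IL-33 libraries (3.08 ± 0.81, adjusted p 0.0691). *Gfi1* was listed at 40.8, 38.7 and 50.8 and 24.2, 18.8 and 21.5, without overlap (−0.98 ± 0.55, adjusted p 0.425, with a standard error that draws on the WT libraries too). *Bcl11b* (−0.06) and *Prdm1*, which encodes BLIMP-1 (0.16), overlapped between the groups, and *Foxf1* was at 0 under PBS and at 1.03, 1.08 and 1.82 under IL-33 (adjusted p 0.344). Of 26 factors tested 3 rose and none fell, with a median of 0.32 (0.29 over the 24 members above 0 in all 6 libraries).

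Genes of other innate lymphoid lineages did not pass the test. *Tbx21*, which encodes the ILC1 factor T-bet, was listed at 0, 9.4 and 4.7 FPKM under PBS and 0, 0.377 and 0 under IL-33. *Eomes* was above 0.1 FPKM only in PBS replicate 2, the library with NK cell markers. *Ahr* was listed at 0.0824, 14.3 and 13.3 and 9.05, 8.93 and 9.23, with overlap. Among the 12 ILC1 and ILC3 genes limma called none, beside 2.96% of all genes tested, and for so short a list none is near that share. Their median of −0.62 changed sign to 0.76 over the 4 members above 0 in all 6 libraries. Calls ended for *Tcf7* (adjusted p 0.0507 to 0.0629 without any 6DKO IL-33 library) and *Nfil3* (adjusted p 0.053 to 0.133 without any 6DKO IL-33 library or 6DKO PBS replicate 2 or 3 or WT IL-33 replicate 2) among the lineage factors, and for *Irf4* with the 6 libraries alone (adjusted p 0.056).

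Immediate early genes fell far more often than they rose. In the list of AP-1, NR4A and EGR family members 10 of 21 tested genes fell and 1 rose, with a median of −0.84 (−0.85 over the 20 members above 0 in all 6 libraries). *Fos*, the AP-1 subunit, fell from 2527, 1935 and 2336 FPKM to 1219, 1276 and 1242 (−0.85 ± 0.15, adjusted p 0.00983), with the IL-33 libraries close together and all below the PBS libraries. *Nr4a1*, an orphan nuclear receptor induced by antigen and calcium signals, fell from 2437, 2119.9 and 2107 to 748, 732 and 1085 (−1.40 ± 0.16, adjusted p 0.000994). *Ier2* fell from 1039, 955 and 1039.8 to 549.9, 531 and 558 (−0.89 ± 0.12, adjusted p 0.00217). The call ended for *Fos* with no variance trend (adjusted p 0.129) and for *Ier2* with no variance trend (adjusted p 0.0765).

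*Egr1*, a zinc-finger factor of the early response, fell from 412, 407 and 266 FPKM to 111, 132 and 109 (−1.60 ± 0.22, adjusted p 0.00263). Its relative *Egr3* fell from 31.9, 79.3 and 54.4 to 1.67, 5.77 and 7.63 (−3.29 ± 0.52, adjusted p 0.00604), the largest fall of the list. *Fosb* (−1.11) and *Fosl2* (−0.71) were lower in every IL-33 library than in any PBS library and missed the threshold, and *Fosl1*, with *Ccdc85b* on its other strand, overlapped (−0.52). The 1 gene of the list that rose was *Batf3*, a BATF-family factor chosen after its values were seen, at 0 under PBS and 2.38, 4.76 and 7.34 under IL-33 (adjusted p 0.0233). Its call ended without IL-33 replicate 2 or 3 (adjusted p 0.0745 to 0.0863).

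Among NF-kB pathway genes, which act just downstream of ST2, 1 of 26 fell and none rose, beside 1.12% and 1.84% of all genes tested. That gene was *Nfkbiz*, which encodes the nuclear inhibitor IκBζ, and it fell from 716, 761 and 717 FPKM to 326, 363 and 309 (−1.14 ± 0.17, adjusted p 0.00538). The call ended for *Nfkbiz* with no variance trend (adjusted p 0.0517). The subunit genes *Nfkb1* (0.13), *Nfkb2* (−0.45), *Rel* (−0.46) and *Rela* (−0.28) did not pass the test, and *Nfkb2* shares its locus with *Psd* on the other strand. *Rela* was listed at 83.2, 85.4 and 89.0 and 70.6, 74.6 and 66.6, lower in each IL-33 library. The list's median was −0.33 (−0.37 over the 25 members above 0 in all 6 libraries).

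No STAT or SOCS gene was called by limma, of 17 tested, beside 2.96% of all genes tested. For so short a list none is near that share. *Stat2* (0.95) and *Stat3* (0.09) overlapped between the groups, and *Stat3* overlaps *Stat5a* on the other strand. *Stat4*, which relays IL-12 signals, was listed at 116, 79.8 and 73.9 FPKM and 61.8, 53.7 and 61.7, without overlap (−0.57 ± 0.25, adjusted p 0.3). The median was −0.10 (−0.11 over the 16 members above 0 in all 6 libraries).

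Genes linked to quiescence and mRNA decay also fell, 4 of 22, and none rose (median −0.41, −0.41 over the 20 members above 0 in all 6 libraries). *Klf3*, a transcriptional repressor, fell from 116, 112 and 95.8 FPKM to 26.0, 25.8 and 24.3 (−2.04 ± 0.20, adjusted p 0.000293), with each group in a narrow band. *Zfp36l1*, which promotes decay of AU-rich mRNAs, fell from 405, 332 and 437 to 131, 157 and 149 (−1.41 ± 0.20, adjusted p 0.00316). Its relative *Zfp36*, which encodes tristetraprolin, fell from 1754, 907 and 1198 to 584, 539.8 and 677 (−1.05 ± 0.22, adjusted p 0.0262). The antiproliferative gene *Btg2* fell from 458, 356 and 354 to 237, 237 and 219 (−0.74 ± 0.16, adjusted p 0.0308).

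*Klf2* (−0.25) and *Klf6* (0.03) overlapped between PBS and IL-33, while *Klf4* was lower in every IL-33 library, at 34.8, 44.1 and 47.0 FPKM against 95.8, 68.5 and 100.4, and just missed the threshold (adjusted p 0.0526). Calls ended for *Zfp36* (adjusted p 0.0542 to 0.113 without any 6DKO IL-33 library or 6DKO PBS replicate 1 or 3) and *Btg2* (adjusted p 0.0506 to 0.112 without any 6DKO IL-33 library or 6DKO PBS replicate 1 or WT IL-33 replicate 1).

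Chemokine transcripts held some of the most abundant and most reduced genes of the response. *Ccl1*, the ligand of CCR8 (chr11:82176657-82305690, − strand of mm10), was listed at 5467, 6932 and 6841 FPKM under PBS and 577, 703 and 664 under IL-33. It fell, without overlap (−3.30 ± 0.19, adjusted p 5.65e-06). The neutrophil chemoattractants *Cxcl1*, from 878, 893 and 661 to 113, 92.4 and 132 (−2.84 ± 0.22, adjusted p 5.22e-05), and *Cxcl2*, from 1336, 1131 and 1072 to 543, 261 and 451 (−1.55 ± 0.23, adjusted p 0.00367), fell as well. Of chemokine receptors, *Ccr8* fell from 3982, 3256 and 4053 to 1886, 1992 and 2161 (−0.90 ± 0.16, adjusted p 0.0118) and *Ccr2*, a receptor for monocyte chemoattractants, from 334, 327 and 311 to 148, 93.3 and 97.4 (−1.55 ± 0.19, adjusted p 0.00149).

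*Ccr7*, the receptor that guides cells to lymph nodes, rose from 0.0845, 0 and 18.4 FPKM to 63.5, 56.6 and 112 (4.76 ± 0.95, adjusted p 0.0206). *Ccl3*, at 0, 63.5 and 0 and 8.45, 4.34 and 1.59, and *Ccl4*, at 0, 256 and 0 and 23.2, 3.91 and 3.33, owed their PBS level to replicate 2, the library with NK cell and macrophage markers. The same library had the highest *Ccl5*, at 249, 995 and 254 under PBS and 741, 391 and 667 under IL-33. Without a test of their part, these markers are given as values only. In the list of 20 tested genes, which does not include *Cxcl1*, 1 rose and 4 fell, and its median of 0.31 (−0.12 after quantile normalization) changed sign again to −0.19 over the 14 members above 0 in all 6 libraries. Calls ended for *Ccr7* (adjusted p 0.0616 to 0.10 without any 6DKO IL-33 library or 6DKO PBS replicate 1 or 2) and *Ccr8* (adjusted p 0.055 to 0.0628 without 6DKO IL-33 replicate 1 or 2), and for *Cxcl2* with array weights (adjusted p 0.0906).

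Adhesion molecules had 3 rises. *Itgae*, the αE integrin chain CD103 (chr11:73090583-73147446, + strand of mm10), was listed at 0, 0 and 4.66 FPKM under PBS and 104, 149 and 139 under IL-33. It passed from near 0 to more than 100 FPKM in each IL-33 library (6.19 ± 0.71, adjusted p 0.000946). *Itgb3*, the β3 integrin chain, rose from 24.7, 26.9 and 28.6 to 58.3, 66.4 and 63.7 (1.2 ± 0.21, adjusted p 0.0103). The hyaluronan receptor *Cd44* rose from 159.6, 159 and 228 to 270.1, 312 and 320.0 (0.74 ± 0.17, adjusted p 0.0436).

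*Itga4*, which pairs with β1 or β7, was higher in every IL-33 library, at 16.2, 14.9 and 15.0 FPKM against 11.4, 7.18 and 6.03, and did not pass the test (adjusted p 0.402), and *Cerkl* overlaps it on the other strand. The collagen-binding chains *Itga1* and *Itga2* were below the 0.5 FPKM limit. In all 3 of 18 adhesion genes rose and none fell, with a median of 0.39 (0.39 over the 16 members above 0 in all 6 libraries). Calls ended for *Itgb3* (adjusted p 0.0518 without 6DKO IL-33 replicate 2) and *Cd44* (adjusted p 0.0719 to 0.151 without any 6DKO IL-33 or WT IL-33 library or 6DKO PBS replicate 1 or 2).

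Within the family of *Sema6d*, *Sema4a* fell from 111, 128 and 109 FPKM to 57.7, 55.0 and 39.2 (−1.2 ± 0.23, adjusted p 0.0184), with *Mir7011* on the same strand. *Sema4d*, an immune semaphorin, was listed at 25.7, 33.9 and 53.2 and 47.3, 42.8 and 37.4, with overlap, and *Sema7a* was below the limit. Of 8 semaphorin, plexin and neuropilin genes tested, 1 fell and none rose (median −0.05, −0.30 over the 7 members above 0 in all 6 libraries). The *Sema4a* call ended without IL-33 replicate 2 or 3 (adjusted p 0.0526 to 0.0784).

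**Figure D2:**
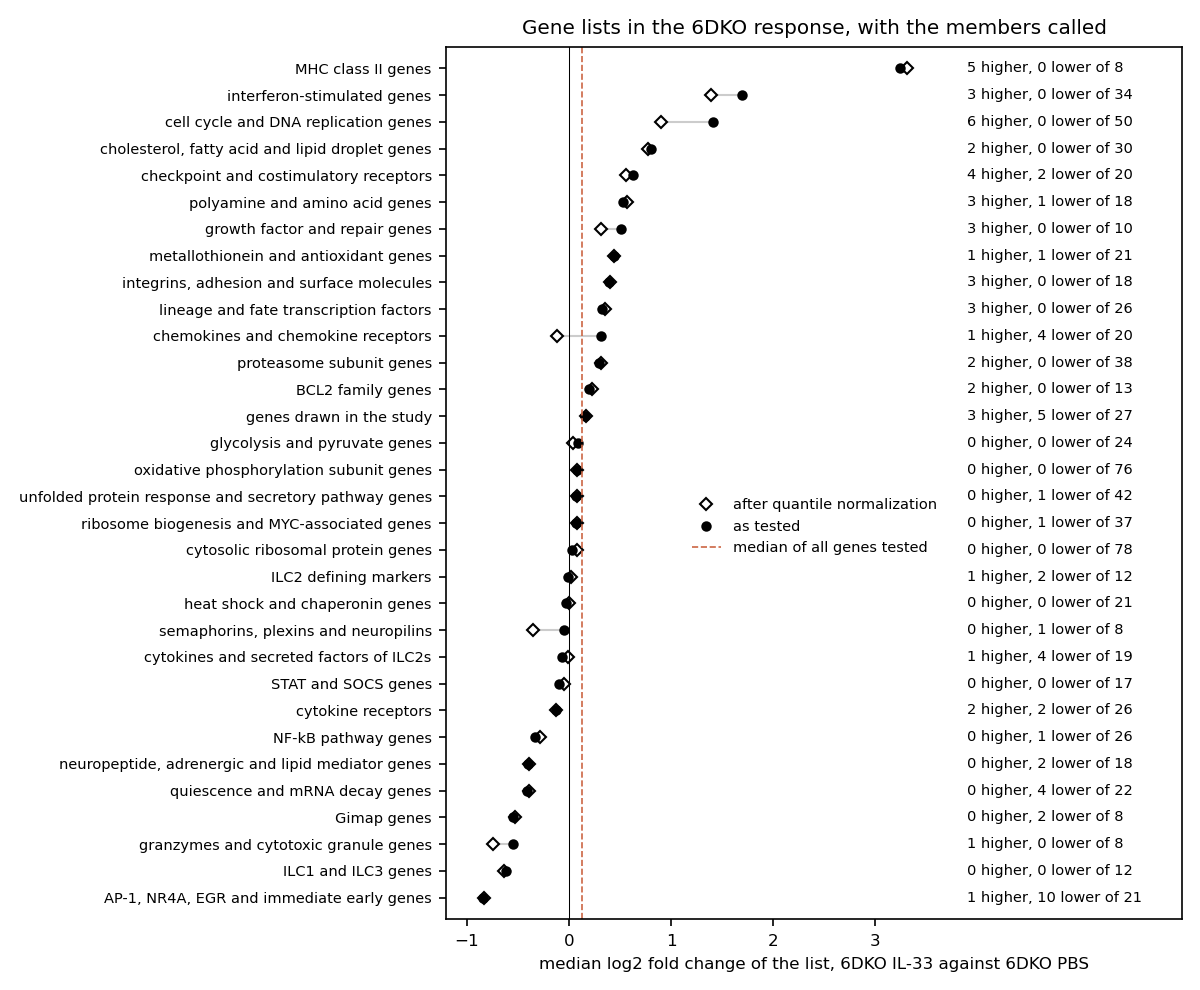
Median log2 fold change of each gene list in the 6DKO response, as tested (filled circle) and after quantile normalization (open diamond), with the members that rose or fell of those tested written at the right and a dashed line at the median of all genes tested. MHC class II genes lie farthest to the right and immediate early genes farthest to the left, and the chemokine and ILC2 marker medians change sign between the scalings.

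Of 50 cell cycle and replication genes tested 6 rose and none fell. The median was 1.41 (0.88 over the 19 members above 0 in all 6 libraries, and 0.90 after quantile normalization). Members near 0 under PBS were tested only if IL-33 libraries held them, so their direction was largely set by the filter. *Ube2c*, which feeds the anaphase-promoting complex, was listed at 0 in the 3 PBS libraries and at 18.1, 7.34 and 19 FPKM in the IL-33 libraries (adjusted p 0.00125). *Ccnb1*, which encodes cyclin B1, was likewise at 0 and then at 5.08, 2.52 and 4.33 (adjusted p 0.0103). The call ended for *Ccnb1* with quantile normalization or the 6 libraries alone (adjusted p 0.05003 to 0.0647).

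Of replication factors, *Gins2*, a subunit of the replicative helicase, rose from 0, 0.171 and 0 FPKM to 8.03, 2.59 and 12.3 (2.84 ± 0.53, adjusted p 0.0158), and *Ccne2*, which encodes cyclin E2, from 0.0515, 0.0505 and 0 to 1.98, 3.49 and 2.66 (1.82 ± 0.35, adjusted p 0.0165). *Ints8* overlaps *Ccne2*, *Gse1* overlaps *Gins2* and *Tnnc2* overlaps *Ube2c*, each on the other strand. *Mki67*, the classical proliferation marker, was listed at 0.0147, 0.0144 and 0 and 2.72, 0.973 and 1.43, without overlap (1.37 ± 0.36, adjusted p 0.0686). *Top2a* was listed at 8.58, 0.0851 and 4.3 and 10.4, 10.4 and 7.78, and *Cdk1* at 0 and then 1.65, 2.19 and 5.58, and neither passed the test. Calls ended for *Gins2* (adjusted p 0.0607 to 0.0671 without 6DKO IL-33 replicate 1 or 3) and *Ccne2* (adjusted p 0.0545 without 6DKO IL-33 replicate 2).

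Genes of the growth machinery had medians near that of all genes tested. None of the 78 cytosolic ribosomal protein genes was called by limma, beside 2.96% of all genes tested (median 0.03 (0.08 after quantile normalization), 0.03 over the 78 members above 0 in all 6 libraries). *Rpl3* (−0.18), *Rpl4* (0.25), *Rpl5* (−0.09) and *Rpl6* (0.34) stayed within 1 log2 unit, and as members of a family with many processed copies, with a snoRNA inside *Rpl4* and *Fam69a* opposite *Rpl5*, their values are uncertain. Of 37 ribosome biogenesis and MYC-associated genes 1 fell, beside 1.12% of all genes tested. This was the processing factor *Ppan*, which fell from 64.1, 38.3 and 43.3 FPKM to 17.3, 18.9 and 20.9 (−1.27 ± 0.27, adjusted p 0.0292). *Myc* itself was listed at 75.2, 68.0 and 91.2 and 79.0, 90.0 and 121, with overlap, and *Ncl* (0.05, with snoRNA genes in its introns), *Npm1* (0.08) and *Fbl* (0.03) did not pass the test. The biogenesis median was 0.07 (0.08 after quantile normalization) (0.05 over the 33 members above 0 in all 6 libraries). The *Ppan* call ended without any 6DKO IL-33 library or WT IL-33 replicate 2 (adjusted p 0.0514 to 0.109).

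The proteasome list had 2 rises among 38 genes, beside 1.84% of all genes tested. Its fold changes were positive for 30 genes (78.9% beside 57.3% of all genes tested), with a median of 0.29 (0.29 over the 38 members above 0 in all 6 libraries). *Psma7*, a core particle subunit, rose from 164, 221 and 235 FPKM to 318, 333 and 339 (0.69 ± 0.16, adjusted p 0.0453). *Psmb9*, an immunoproteasome subunit with *Tap1* on its other strand, rose from 34.2, 85.1 and 83.7 to 160.4, 158 and 159.7 (1.33 ± 0.32, adjusted p 0.0499). *Psma1* (0.73), *Psma2* (0.29), *Psma3* (0.37) and *Psma4* (0.19, with *AY074887* opposite) did not pass the test. Both calls were weak, and they ended for *Psma7* (adjusted p 0.0689 to 0.145 without any 6DKO IL-33 or WT IL-33 library or 6DKO PBS replicate 1) and *Psmb9* (adjusted p 0.0504 to 0.154 without any 6DKO IL-33 or WT IL-33 or WT PBS library or 6DKO PBS replicate 1).

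Secretory and folding genes had medians near that of all genes tested as well. Of 42 genes of the unfolded protein response and secretory pathway 1 fell, beside 1.12% of all genes tested. This was the signal peptidase subunit *Spcs3*, with *Asb5* on its other strand, which fell from 230.0, 170.3 and 136 FPKM to 97.1, 77.5 and 81.5 (−1.03 ± 0.22, adjusted p 0.0262). The chaperone *Hspa5* (−0.03), the factor *Xbp1* (−0.14), *Calr* (−0.70) and *Pdia6* (−0.52, opposite *Atp6v1c2*) did not pass the test, although *Calr* was lower in every IL-33 library. The medians were 0.07 (0.08 after quantile normalization) for this list (0.07 over the 42 members above 0 in all 6 libraries) and −0.03 (−0.00 after quantile normalization) for 21 heat shock and chaperonin genes (−0.00 over the 20 members above 0 in all 6 libraries). Of the heat shock and chaperonin genes limma called 0, beside 2.96% of all genes tested. *Hspa1b*, a stress-inducible chaperone, was listed at 101, 64.1 and 13.4 and 11.9, 14.8 and 107, so that PBS replicate 3 and IL-33 replicate 3 each stood apart from their group, and *Hspa1a* did the same (16.6, 23.3 and 1.94, then 5.69, 4.88 and 43.4). *Hspa8* (−0.13, with 2 snoRNAs in its introns) and *Hsp90aa1* (0.33) did not pass the test. The *Spcs3* call ended without PBS replicate 1 or any IL-33 library (adjusted p 0.051 to 0.106).

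No gene listed for glycolysis or oxidative phosphorylation passed the test. None of 24 glycolysis genes and none of 76 oxidative phosphorylation subunit genes was called by limma, beside 2.96% of all genes tested. Their medians were 0.09 (0.04 after quantile normalization) (0.09 over the 22 members above 0 in all 6 libraries) and 0.08 (0.08 after quantile normalization) (0.08 over the 76 members above 0 in all 6 libraries). *Ldha*, which makes lactate, was listed at 2477, 1954 and 2190.4 FPKM under PBS and 2042, 2159 and 1952 under IL-33, with overlap. *Pkm* (0.05), the glucose transporter *Slc2a1* (−0.02) and *Hk2* (0.43) overlapped too. *Ndufa4*, a mitochondrial cytochrome oxidase subunit, was listed at 200.4, 373 and 435 and 551, 528 and 595, without overlap (0.80 ± 0.24, adjusted p 0.108), whereas *Ndufa1* (0.19), *Ndufa2* (−0.48) and *Ndufa3* (−0.12) did not pass the test, the last 2 sharing loci with *Tmco6* and *Tfpt* on the other strand.

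Of 30 tested genes of cholesterol, fatty acid and lipid droplet metabolism 2 rose, beside 1.84% of all genes tested. The list's median was 0.80 (0.59 over the 20 members above 0 in all 6 libraries). *Mvd*, a mevalonate pathway decarboxylase, rose from 0, 2.2 and 0 FPKM to 11.5, 6.67 and 11.6 (2.86 ± 0.57, adjusted p 0.0207). *Scd2*, a fatty acid desaturase that contains *Mir5114*, was at 0 under PBS and at 7.9, 3.03 and 4.83 under IL-33 (adjusted p 0.0191). *Fabp5*, a fatty acid carrier, was listed at 11.9, 0 and 27.5 and 95, 76.2 and 68.2, without overlap (3.48 ± 1.14, adjusted p 0.147). *Hmgcs1* (0.31) and *Sqle* (1.49) did not pass the test. Calls ended for *Mvd* (adjusted p 0.055 to 0.0949 without any 6DKO IL-33 library) and *Scd2* (adjusted p 0.0682 to 0.0901 without 6DKO IL-33 replicate 1 or 3).

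Amino acid genes held both strong rises and a strong fall. *Asns*, which makes asparagine, was at 0 in the 3 PBS libraries and at 16.2, 16.1 and 13 FPKM in the IL-33 libraries (adjusted p 0.0165). *Mthfd2*, a mitochondrial folate enzyme, rose from 0.234, 1.07 and 6.57 to 34.6, 19.5 and 29.9 (3.39 ± 0.73, adjusted p 0.0286). *Slc7a8*, a transporter of neutral amino acids, fell from 125, 192 and 164 to 29.3, 27.0 and 16.7 (−2.69 ± 0.28, adjusted p 0.000458).

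*Odc1*, which starts polyamine synthesis, was listed at 1039, 913 and 1019 FPKM and 692, 749 and 927, with overlap, *Slc7a5* at 3.64, 1.03 and 4.96 and 7.2, 6.00 and 8.08, with its partner chain *Slc3a2* at 277, 160.3 and 229 and 143, 143 and 152. In the polyamine and amino acid list 3 of 18 rose and 1 fell (median 0.53, 0.05 over the 15 members above 0 in all 6 libraries). Calls ended for *Asns* (adjusted p 0.0607 to 0.0714 without any 6DKO IL-33 library) and *Mthfd2* (adjusted p 0.0503 to 0.122 without any 6DKO IL-33 or WT IL-33 library or 6DKO PBS replicate 1 or 2).

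Both metallothionein genes tested first in their list had higher values after IL-33. *Mt2* was listed at 0 in the 3 PBS libraries and at 11.9, 26.1 and 30.9 FPKM in the IL-33 libraries (adjusted p 0.000773). *Mt1* was listed at 14.8, 8.94 and 17.2 and 122, 101 and 119.8, with a wide gap between the groups that did not pass the test (3.02 ± 0.97, adjusted p 0.14). That standard error draws on the WT libraries too, and limma called *Mt1* in 2 of 23 alternative settings (lowest adjusted p 0.000942). *Prdx6*, a peroxiredoxin, fell from 1012, 807 and 740.2 to 379, 392 and 441 (−1.07 ± 0.20, adjusted p 0.0165). *Sod2* (0.68) and thioredoxin *Txn1* (0.54) were higher in every IL-33 library without passing the test. Of 21 genes in this list 1 rose and 1 fell (median 0.44, 0.32 over the 18 members above 0 in all 6 libraries). The *Prdx6* call ended without IL-33 replicate 1 or 2 (adjusted p 0.0679 to 0.0744).

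Of 34 interferon-stimulated genes tested 3 rose, beside 1.84% of all genes tested. The list's median was 1.69 (0.87 over the 14 members above 0 in all 6 libraries). Members at 0 under PBS were tested only because IL-33 libraries held them. *Ifit1*, an RNA-binding antiviral protein, was at 0 in the 3 PBS libraries and at 10.6, 11.5 and 23.8 FPKM in the IL-33 libraries (adjusted p 0.00661). *Dhx58*, which encodes the RNA sensor LGP2, was likewise at 0 and then at 5.25, 8.25 and 16.0 (adjusted p 0.00326). *Bst2*, which encodes tetherin, rose from 50.7, 31.9 and 95.4 to 189.7, 177 and 225 (1.85 ± 0.36, adjusted p 0.0184), a call that ended without any 6DKO IL-33 library (adjusted p 0.0608 to 0.0885). *Isg15* was listed at 0.265, 2.34 and 4.47 and 10.8, 14.3 and 16.7 (2.37 ± 0.65, adjusted p 0.0815), and *Irf7*, opposite *Phrf1*, at 12.3, 41.3 and 0.0786 and 89.7, 62.4 and 123 (3.40 ± 1.15, adjusted p 0.161), each without overlap. *Ifit3* overlapped between the groups (1.03).

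Genes of MHC class II presentation had the highest median of all lists, 3.24 (3.00 over the 4 members above 0 in all 6 libraries), and 5 of 8 rose. Members near 0 under PBS, *Cd80* and *H2-DMb1*, were tested only because IL-33 libraries held them, so the filter set their direction. *Cd74*, the invariant chain with *Mir5107* on its strand, rose from 167, 23.1 and 103 FPKM to 936, 607 and 751 (3.33 ± 0.77, adjusted p 0.0396). *H2-Eb1* rose from 13.6, 0 and 14.8 to 129, 111 and 175 (4.48 ± 0.99, adjusted p 0.0336), and *H2-DMb1*, which loads peptide, from 0, 0 and 0.114 to 24.9, 13.4 and 6.34 (3.75 ± 0.53, adjusted p 0.00316). Its partner *H2-DMa*, opposite *Brd2*, rose from 0, 6.37 and 12 to 47.5, 59.8 and 44.6 (3.49 ± 0.76, adjusted p 0.0312), and the costimulatory ligand *Cd80* went from 0 in all PBS libraries to 2.27, 3.72 and 4.26 (adjusted p 0.0092).

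*H2-Aa* was listed at 96.4, 10.2 and 33.7 FPKM under PBS and 291, 280.0 and 324 under IL-33, and *H2-Ab1* at 86.8, 28.6 and 83.1 and 486, 390.3 and 425. Both were higher in every IL-33 library and did not pass the test (adjusted p 0.199 and 0.166), and values of H2 genes are uncertain because related copies can share reads. *Cd68*, a macrophage marker chosen after its values were seen, rose from 0.24, 0 and 0 to 4.87, 4.15 and 2.1 (2.08 ± 0.43, adjusted p 0.0238). Of the 12 macrophage markers tested, with a median of 0.35, it was the only 1 called. It was highest in IL-33 replicate 1, where the 18 macrophage markers summed to 11.8 FPKM, against 447 and 163 in IL-33 replicates 2 and 3. The part of macrophages, dendritic cells or B cells in the class II rise was not tested. Calls ended for *Cd74* (adjusted p 0.0586 to 0.15 without any 6DKO IL-33 or WT IL-33 library or 6DKO PBS replicate 2 or 3), *H2-Eb1* (adjusted p 0.0541 to 0.134 without any 6DKO IL-33 or WT IL-33 library), *H2-DMa* (adjusted p 0.0503 to 0.128 without any 6DKO IL-33 or WT IL-33 library) and *Cd68* (adjusted p 0.0774 to 0.0855 without 6DKO IL-33 replicate 1 or 2), and for *Cd80* with quantile normalization or array weights or the 6 libraries alone (adjusted p 0.0679 to 0.0866).

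The granzyme genes *Gzma* and *Gzmb* followed a single library. *Gzma* was listed at 0, 653 and 0 FPKM under PBS and 37.2, 3.02 and 0 under IL-33, and *Gzmb* at 0, 100.4 and 0 and 9.49, 0 and 0.957. Nearly all of both came from PBS replicate 2, where the NK cell markers summed to 164 FPKM, and the part of NK cells, which the gate was set to exclude by NK1.1, was not tested. *Ctsw*, a cathepsin of cytotoxic cells that lies opposite *Fibp*, rose from 126, 223 and 44.1 to 436, 445 and 433 (2.01 ± 0.47, adjusted p 0.0406). It was the only gene of the 8 tested that was called, and the list's median was −0.55 (−0.19 over the 4 members above 0 in all 6 libraries), while *Gzmc* and *Gzmk* stayed below the limit. The *Ctsw* call ended without PBS replicate 1 or 3, any IL-33 library or any WT IL-33 library (adjusted p 0.0539 to 0.135).

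Gimap genes, a cluster of GTPases of lymphocyte survival whose related copies make their values uncertain, fell in 2 of 8 cases (median −0.55, −0.73 over the 7 members above 0 in all 6 libraries). *Gimap3* fell from 484, 494 and 498 FPKM to 86.7, 91.9 and 84.6 (−2.48 ± 0.15, adjusted p 6.5e-06), with a spread of at most 15 FPKM in either group. *Gimap6* fell from 356, 359.8 and 389 to 143, 149 and 180.2 (−1.23 ± 0.17, adjusted p 0.00238). *Gimap1* (−0.73) and *Gimap5* (−1.0) were lower in every IL-33 library without passing the test, and *Gimap4* overlapped (0.97).

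In the BCL2 family 2 of 13 tested genes rose, both encoding pro-apoptotic BH3-only proteins, and the list's median was 0.20 (−0.16 over the 10 members above 0 in all 6 libraries). *Pmaip1*, which encodes NOXA, rose from 38.0, 6.28 and 16.4 FPKM to 92.7, 70.1 and 63.4 (2.15 ± 0.49, adjusted p 0.0383). *Bbc3*, which encodes PUMA, was at 0 under PBS and at 2.29, 3.43 and 3.27 under IL-33 (adjusted p 0.0396). The survival genes *Mcl1*, at 108, 119 and 88.4 and then 58.4, 64.7 and 49.7 (−0.85 ± 0.21, adjusted p 0.0508), and *Bcl2*, at 76.9, 114 and 100.4 and 68.9, 58.7 and 34.3 (−0.88 ± 0.32, adjusted p 0.197), were lower in every IL-33 library and missed the threshold. *Bcl2l1* (−0.71) and *Bcl2l11* (−0.46) did not pass it either. Calls ended for *Pmaip1* (adjusted p 0.0639 to 0.154 without any 6DKO IL-33 or WT IL-33 library or 6DKO PBS replicate 3) and *Bbc3* (adjusted p 0.0539 to 0.138 without any 6DKO IL-33 or WT IL-33 library or 6DKO PBS replicate 1 or 3).

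Further genes with large rises had varied functions. *Dpp7*, a lysosomal dipeptidyl peptidase, was at 0 in the 3 PBS libraries and at 27.5, 28.5 and 20.1 FPKM in the IL-33 libraries (adjusted p 0.000244). *Ifi27l2a*, an interferon-inducible mitochondrial gene, was listed at 0, 28.6 and 0 and 218, 153 and 524 (6.40 ± 1.28, adjusted p 0.0207). *Plac8* was listed at 32.1, 0.874 and 37.1 and 295, 271 and 377 (4.55 ± 0.87, adjusted p 0.0165), and *Aqp3*, a channel for water and glycerol, at 0, 0 and 5.67 and 32.5, 51.3 and 47.6 (4.55 ± 0.97, adjusted p 0.0288). In each of the last 3 genes the lowest IL-33 library was at least 4 times the highest PBS library.

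*Got1*, a cytosolic aspartate aminotransferase, rose from 0.157, 10.2 and 9.33 FPKM to 45.4, 53.9 and 55.5 (3.36 ± 0.78, adjusted p 0.0408). *Myo1f*, a class I myosin of leukocytes, rose from 0.04, 8.28 and 5.3 to 32.0, 32.5 and 44.6 (3.23 ± 0.69, adjusted p 0.0271), and *Trim12c*, a TRIM-family gene, from 0.17, 0.322 and 0.659 to 9.2, 13 and 14.4 (3.25 ± 0.76, adjusted p 0.0416). Every IL-33 library lay above every PBS library for each of them. Calls ended for *Ifi27l2a* (adjusted p 0.0615 to 0.104 without any 6DKO IL-33 library or 6DKO PBS replicate 1 or 3), *Plac8* (adjusted p 0.0608 to 0.0762 without any 6DKO IL-33 library) and *Aqp3* (adjusted p 0.0501 to 0.113 without any 6DKO IL-33 or WT IL-33 library or 6DKO PBS replicate 1 or 2), and for *Got1* (adjusted p 0.054 to 0.143 without any 6DKO IL-33 or WT IL-33 library or WT PBS replicate 3), *Myo1f* (adjusted p 0.0503 to 0.119 without any 6DKO IL-33 library or WT IL-33 replicate 2 or 3) and *Trim12c* (adjusted p 0.0521 to 0.151 without any 6DKO IL-33 or 6DKO PBS or WT IL-33 library or WT PBS replicate 3).

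The largest fall was that of *Snord96a*, a small nucleolar RNA, listed at 6283, 6155 and 5299 FPKM under PBS and at 0 in all 3 IL-33 libraries (adjusted p 0.0202). Genes of this kind are short and lie in introns of host genes, so the value is uncertain, and the 3 WT PBS libraries were listed at 7159, 0 and 0. *Rxrg*, a retinoid X receptor, fell from 31.2, 17.5 and 29.4 to 0.681, 0.689 and 0.394 (−4.05 ± 0.64, adjusted p 0.00661). *Stc2*, a secreted glycoprotein, fell from 18.7, 17.6 and 22.4 to 0, 1.35 and 0 (−3.94 ± 0.59, adjusted p 0.00446). Both were above 17 FPKM in every PBS library and below 2 in every IL-33 library.

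*Epcam*, an epithelial adhesion molecule, fell from 54.0, 22.3 and 40.0 FPKM to 8.43, 0 and 1.37 (−3.73 ± 0.73, adjusted p 0.0179), and PBS replicate 2, the library richest in other epithelial markers, had the lowest *Epcam* of the PBS group. *Mmp2*, a gelatinase, was listed at 8.86, 9.38 and 20.7 under PBS and at 0 under IL-33 (adjusted p 0.0158). *Acer2*, a Golgi ceramidase, fell from 19, 13.4 and 40.0 to 3.77, 1.07 and 1.8 (−2.91 ± 0.59, adjusted p 0.0213). The F-box gene *Fbxl21* fell from 76.2, 26.2 and 34.1 to 4.23, 4.96 and 6.12 (−2.79 ± 0.50, adjusted p 0.0112).

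*Sh3bgrl2* fell from 72.4, 13.4 and 16.4 FPKM to 3.75, 4.64 and 0.211 (−3.05 ± 0.73, adjusted p 0.047) and *Mettl24*, a methyltransferase-like gene, from 69.1, 34.7 and 21.7 to 5.95, 2.77 and 6.13 (−2.75 ± 0.57, adjusted p 0.0254). In both, PBS replicate 1 was the highest library. Among these falls, the *Rxrg* and *Stc2* calls held when any 1 library was left out, while the call ended for *Rxrg* with a pseudocount of 0.1 (adjusted p 0.056). Calls ended for *Snord96a* (adjusted p 0.0532 to 0.0825 without any 6DKO IL-33 or 6DKO PBS library), *Epcam* (adjusted p 0.0522 to 0.0784 without 6DKO PBS replicate 1 or 6DKO IL-33 replicate 2 or 3) and *Mmp2* (adjusted p 0.0617 to 0.0634 without any 6DKO IL-33 library), and for *Acer2* (adjusted p 0.0531 to 0.10 without 6DKO PBS replicate 3 or 6DKO IL-33 replicate 2 or 3), *Fbxl21* (adjusted p 0.0507 to 0.0533 without 6DKO IL-33 replicate 1 or 2), *Sh3bgrl2* (adjusted p 0.0507 to 0.171 without any 6DKO IL-33 or WT IL-33 or WT PBS library or 6DKO PBS replicate 1 or 3) and *Mettl24* (adjusted p 0.0645 to 0.112 without any 6DKO IL-33 library or 6DKO PBS replicate 1).

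Of the 28 genes that the study drew for these cells, 27 were tested and 3 rose, *Tigit*, *Tcf7* and *Retnla*. Those that fell numbered 5, *Tnfrsf18*, *Il5*, *Csf2*, *Tnf* and *Nmur1*. The median was 0.16 (−0.06 over the 21 members above 0 in all 6 libraries).

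The libraries labelled WT served to set a second response beside this, and the 2 contrasts share no library. In WT ILC2s 297 genes (2.62%) rose and 180 (1.59%) fell. Both responses called 198 genes in the same direction (112 higher and 86 lower), which was 59.1% of the 6DKO calls and 41.5% of the WT calls, and 1 gene was called in opposite directions. Of the 335 genes called in 6DKO, 94.3% had the same sign in WT, against 62.7% of all genes tested. Across genes, which are not independent replicates, the 2 sets of log2 fold changes had a Pearson correlation of 0.44, and of 0.49 over the 6724 tested genes above 0 in all 12 libraries. The WT rises were 111, 133 and 123 and the falls 81, 100 and 96 without WT IL-33 replicate 1, 2 or 3.

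The genes that rose in 6DKO had a median log2 fold change of 2.27 there and 1.63 in WT, and those that fell −1.60 and −1.41. The 6DKO contrast chose these genes, so the pairs of medians do not compare the responses. A call in 6DKO without a call in WT, as for 136 genes, does not show that the responses differ. The test of that difference, the interaction of genotype and treatment, called 2 genes (0.0177% of those tested), with 622 at an unadjusted p under 0.05 and 0.0701 as the next adjusted p. Among the 335 genes called in 6DKO, 63 had an unadjusted interaction p under 0.05. The 6DKO fold change that chose these genes is part of the interaction, so this count does not show that they differ more often.

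*Gm5547*, a predicted gene, was called for the interaction. It was listed at 23.7, 18.1 and 41.5 FPKM under PBS and 15.7, 23.2 and 43.8 under IL-33 in 6DKO. In WT it was at 0 in the 3 PBS libraries and at 43.8, 39.4 and 56.5 under IL-33 (interaction adjusted p 0.0133). A single group of 3 libraries at 0 set this difference, and limma's count of interaction genes was 0 without WT IL-33 replicate 1 or 3 or 6DKO IL-33 replicate 1 (416, 412 and 460 at an unadjusted p under 0.05), 25 without WT PBS replicate 3, 29 without 6DKO PBS replicate 1, 11 without 6DKO PBS replicate 3, 7 without 6DKO PBS replicate 2, and 4 without WT PBS replicate 1 or 2 or 6DKO IL-33 replicate 2.

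**Figure D3:**
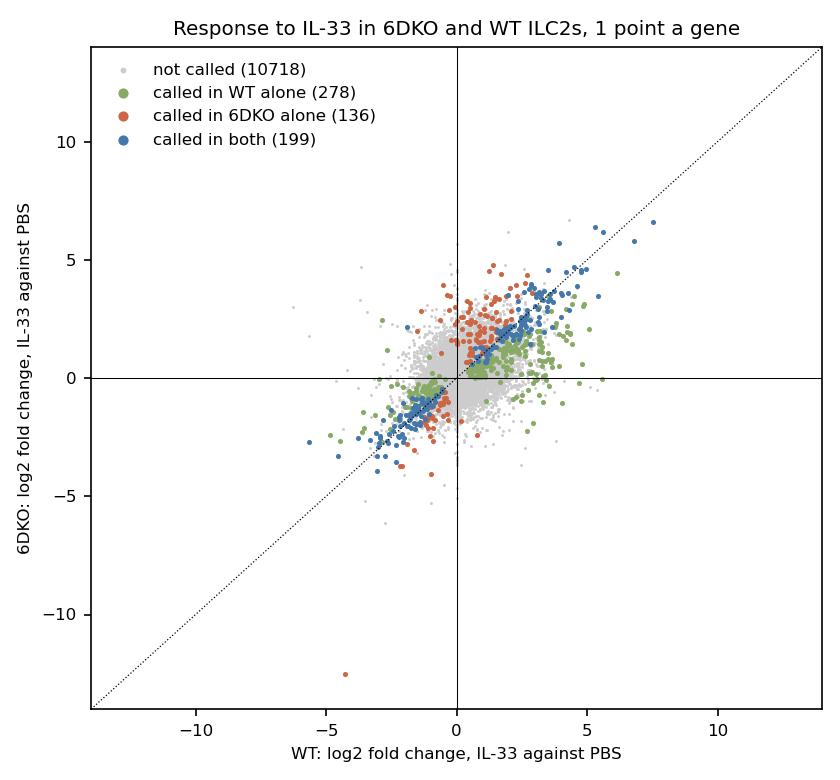
Log2 fold change of IL-33 against PBS in WT (horizontal) and 6DKO ILC2s (vertical), 1 point for each of the 11331 genes tested, coloured by the response or responses in which it was called, with a dotted line of equal change. Most genes called in both lie near the dotted line, and genes called in 1 response alone are spread on both sides of it.

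As several AP-1 genes fell, the promoters of genes that changed were searched for the AP-1 letters TGANTCA on both strands. RefSeq promoters, 250 bases before to 50 after a gene's start on build GRCm38.p6, matched by symbol for 8588 of the 11331 genes tested. The letters occurred in 6.08% of these (522), in 14.1% of those of genes that rose (20 of 142) and in 7.37% of those of genes that fell (7 of 95). The other letters searched on both strands were the NF-kB pattern, in 71.9% of all, 69.7% of risen and 77.9% of fallen genes, the CRE TGACGTCA, in 3.71%, 4.23% and 4.21%, and the E-box CACGTG, in 12.1%, 9.86% and 8.42%. These shares were not tested, and a match is a description of letters, not a binding site.

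The AP-1 letters of 5 genes described above are shown in capitals, to let a reader see them in place, 5′ to 3′ on the strand of the gene. *Il17rb* (chr14:30008847-30009146, − strand), *Havcr2* (chr11:46454681-46454980, + strand), *Mt2* (chr8:94172368-94172667, + strand) and *Ecm1* (chr3:95739520-95739819, − strand) rose, and *Zfp36l1* (chr12:80112964-80113263, − strand) fell. The first capital lies at position −104, −200, −79, −64 and −129 from the gene start, in this order.
Il17rb: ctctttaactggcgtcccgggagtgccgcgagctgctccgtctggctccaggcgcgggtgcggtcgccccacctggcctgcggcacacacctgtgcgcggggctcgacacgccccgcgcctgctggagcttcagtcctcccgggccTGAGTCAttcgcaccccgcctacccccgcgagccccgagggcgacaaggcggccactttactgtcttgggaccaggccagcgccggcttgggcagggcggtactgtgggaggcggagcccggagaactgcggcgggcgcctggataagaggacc
Havcr2: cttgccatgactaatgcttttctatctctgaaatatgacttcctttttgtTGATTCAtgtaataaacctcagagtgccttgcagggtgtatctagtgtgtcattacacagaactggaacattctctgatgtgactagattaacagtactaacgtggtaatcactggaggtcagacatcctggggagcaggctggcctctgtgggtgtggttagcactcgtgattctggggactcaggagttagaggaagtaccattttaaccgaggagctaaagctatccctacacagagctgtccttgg
Mt2: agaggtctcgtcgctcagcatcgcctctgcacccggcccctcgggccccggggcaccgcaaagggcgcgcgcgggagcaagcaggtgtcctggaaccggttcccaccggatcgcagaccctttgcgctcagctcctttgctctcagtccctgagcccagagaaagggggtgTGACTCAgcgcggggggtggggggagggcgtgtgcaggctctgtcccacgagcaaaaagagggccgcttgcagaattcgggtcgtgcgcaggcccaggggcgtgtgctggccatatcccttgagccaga
Ecm1: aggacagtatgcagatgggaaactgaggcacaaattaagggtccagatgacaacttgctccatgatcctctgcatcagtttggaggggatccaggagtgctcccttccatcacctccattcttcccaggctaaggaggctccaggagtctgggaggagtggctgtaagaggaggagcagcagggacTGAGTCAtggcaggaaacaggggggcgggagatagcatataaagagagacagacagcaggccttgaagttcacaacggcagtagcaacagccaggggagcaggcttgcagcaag
Zfp36l1: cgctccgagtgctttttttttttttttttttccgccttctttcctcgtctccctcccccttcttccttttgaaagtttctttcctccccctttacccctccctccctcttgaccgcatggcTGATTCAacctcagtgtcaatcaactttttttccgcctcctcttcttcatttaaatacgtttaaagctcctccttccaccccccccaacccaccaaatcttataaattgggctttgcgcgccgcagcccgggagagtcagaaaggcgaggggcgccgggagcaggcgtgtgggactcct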

How the data were processed

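RNA of lung ILC2s was sequenced in 12 libraries. The authors deposited FPKM values per gene symbol, scaled for library size and gene length, so read totals are unknown. The processing notes in the labels name TopHat2 2.1.1, Bowtie2 and Cuffdiff 2.2.1 on mm10, while the methods of the study name Cuffnorm and other versions. The labels describe SMART-Seq HT and Nextera libraries, which keep no strand, and the methods a stranded kit, so genes on opposite strands are treated as uncertain. The dose of IL-33 also differs between the labels, 50 ng, and the methods. The annotation is not given in the sources used here.

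All other values were computed from the FPKM with limma 3.58.1 in R 4.3.3 and with Python 3.11.15, pandas 2.3.3, numpy 2.4.6 and matplotlib 3.10.9. Linear models of log2(FPKM + 1) fitted a mean for each of 4 groups (12 libraries, 8 residual df) without covariates or pairing, followed by eBayes with a trend, over the 11331 genes whose mean over the 6 6DKO libraries reached 0.5 FPKM. The contrasts were IL-33 against PBS in 6DKO, the same in WT, and their difference, with two-sided p-values adjusted by the Benjamini-Hochberg method and called under 0.05. Relative depth was estimated from the steps between values of low genes. Positions came from GENCODE M21, which placed 96.7% of the tested genes by symbol.

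Genes were named by rule: the 12 rises and 12 falls of largest fold change among called, non-overlapping genes averaging 5 FPKM or more in the higher group, the 8 of each among genes above 0 in all 6 libraries, in each list the first 4 members and up to 4 called members of smallest p, up to 5 genes each way for the interaction, *Sema6d*, the genes drawn in the study, leading markers of other cell types and overlapping genes. Predicted genes were left out of the first 2 parts. The members and lists were chosen with earlier results of these data known, and *Batf3*, *Cd28* and *Cd68* after their values were seen. Some genes that meet the rule are not reported here. Alternatives tried were other pseudocounts, filters, scalings, moderation and weights, a replicate block, a fit of the 6 libraries alone, and leaving out each library.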

Additional observations from a re-analysis of the deposited data

Results flagged for a closer look

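For 2 genes the response to IL-33 differed between genotypes by limma's test of the interaction of genotype and treatment. For *Gm5547* the log2 fold change in 6DKO minus that in WT was −5.61 (adjusted p 0.0133), with 0 in the 3 WT PBS libraries, 23.7, 18.1 and 41.5 FPKM in the 6DKO PBS libraries, and 15.7, 23.2 and 43.8 (6DKO) and 43.8, 39.4 and 56.5 (WT) under IL-33. The difference is fitted against a group listed at 0, so its size depends on the pseudocount and is given only to show what was called.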

How the results depend on the processing

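Each result was recomputed under 23 alternatives, of which 12 left out a library each. In none of them did a gene called in 6DKO change direction, and 29 of the 89 named genes that were called kept the call in all that tested them, while 60 lost it in at least 1. Of the 107 named genes not called, 17 were called in at least 1 alternative: *Mcl1* in 6, *Klf4* in 5, *Ctla4* and *Mki67* in 4, *H2-Ab1*, *Id2* and *Mt1* in 2, *Areg*, *Fosb*, *H2-Aa*, *Icos*, *Id3*, *Isg15*, *Klrg1*, *Ndufa4*, *Slc3a2* and *Tbx21* in 1. Of the named genes called, 74 kept the call at a pseudocount of 0.1, 77 with no filter, 83 of the 85 still tested at a mean of at least 2 FPKM, 57 of the 57 still tested among genes above 0 in all 6 libraries, 77 after quantile normalization, 88 after median ratio scaling, 64 without the variance trend, 89 with robust moderation, 61 with array weights and 46 in a fit of the 6 libraries alone.

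The counts of 208 rises and 127 falls became 83 and 128 among genes above 0 in all 6 libraries, where fewer genes were tested, 119 and 67 with array weights, and 81 and 64 in the fit of 6 libraries, where fewer samples set the spread. With the replicate number as a replicate block they were 128 and 97, with 76 named calls kept. The 12 correlations of deviations between same-numbered libraries of different groups ranged from −0.0497 to 0.0363, so no shared deviation was seen. They do not tell whether same-numbered samples were collected or processed together. Leaving out 1 library gave 80 to 359 rises and 59 to 188 falls in 6DKO, 111 to 435 and 81 to 246 in WT, and 0 to 29 genes called for the interaction of genotype and treatment. That interaction count was 5 at a pseudocount of 0.1, 6 without the trend and 1 with the block. Beyond the fewer genes or samples named, the cause was not tested.

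No called gene changed sign, but some uncalled genes did. After quantile normalization *Ccl3* was at −0.13, *Ccl4* at −0.09, *Hspa5* at 0.05 and *Ldha* at 0.01. With array weights *Crlf2* was at 0.01, *Fbl* at −0.17 and *Hspa5* at 0.03, and at a pseudocount of 0.1 *Gzma* was at 0.28 and *Gzmb* at 0.00. On leaving out 1 library the log2 fold change ranged, for *Ahr* from −0.55 to 1.36, *Bcl2l11* from −0.83 to 0.07, *Ccl3* from −0.66 to 2.34, *Ccl4* from −1.0 to 3.00, *Crlf2* from −0.26 to 0.20, *Eomes* from −1.33 to 0.01, *Fbl* from −0.43 to 0.48, *Fosl1* from −1.11 to 0.06, *Gm5547* from −0.44 to 0.27, *Gzma* from −2.26 to 2.42, *Gzmb* from −1.88 to 1.45, *Hmgcs1* from −0.10 to 0.72, *Hspa1a* from −0.78 to 0.74, *Hspa5* from −0.08 to 0.07, *Hspa8* from −0.27 to 0.00. It also ranged, for *Il1rl1* from −0.29 to 0.04, *Il9* from 0.00 to 1.14, *Klf6* from −0.09 to 0.11, *Lta* from −0.02 to 0.29, *Ncl* from −0.13 to 0.30, *Ndufa1* from −0.03 to 0.34, *Ndufa3* from −0.49 to 0.20, *Rora* from −0.11 to 0.25, *Rpl5* from −0.20 to 0.00, *Sema4d* from −0.00 to 0.51, *Slc2a1* from −0.40 to 0.26, *Stat2* from −0.01 to 1.48, *Stat3* from −0.08 to 0.38, *Vipr2* from −0.08 to 1.34, *Xbp1* from −0.30 to 0.12. The cause was not tested.

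FPKM carry no read totals, so no counting error is given, and genes listed at 0 in PBS libraries limit how far a rise can be measured. Without 6DKO PBS replicate 2, the highest of the 6 libraries in NK cell, epithelial and fibroblast markers, 287 of the 335 calls were kept.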
